A study of Rattus norvegicus with 59 samples.

Results

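The solute carrier genes encode the large superfamily of membrane proteins that move amino acids, sugars, ions, drugs and signalling molecules across membranes. All entries of a lung expression table whose symbol began with Slc and a digit, or with Slco, were taken, with the exception of 1 symbol that was not analysed. They came to 24 of 2887 complete gene entries. A gene was called expressed where its value was at least 1 FPKM (fragments per unit of transcript length and of sequencing depth) in at least 4 of 59 libraries, and 6 of the 24 were. The table covers part of the rat genome: all 24 matched RefSeq's GRCr8 gene table by symbol, and all lay on chromosome 1. Solute carrier genes elsewhere were not analysed here.

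The libraries came from the lungs of male Fischer rats (F344/DuCrl), 1 library per rat, bought at an age of 3 months. Rats breathed crystalline silica at 15 mg/m3, or air, in a whole-body chamber for 6 hours a day over 5 days, and their lungs were taken 1, 3 or 6 months later, or else 9, 12 or 18 months later. Each of the 12 groups held 5 rats, apart from air at 9 months with 4, which gave 30 silica and 29 air libraries. Silica was the only agent named. RNA came from a piece of whole lung. A higher or lower level can therefore reflect more or fewer cells of a type, or more or less RNA per cell. These cannot be told apart.

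Solute carriers use ion gradients, exchange or facilitated diffusion in place of ATP hydrolysis. In the lung they feed epithelial and immune cells with glutamine and other nutrients, set chloride and potassium in airway and alveolar cells, and take up organic anions and cations, inhaled drugs among them. Inhaled crystalline silica is taken up by alveolar macrophages and is known for lasting inflammation and enlarged, secreting type 2 cells of the alveoli.

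FPKM keep no read totals. Relative depth, estimated from the step that 1 fragment is worth in 261 low entries, ran from 0.431 to 2.27, a 5.26-fold range. It ran from 0.469 to 1.71 in silica and from 0.431 to 2.27 in air, and 65.8% of these low values lay within 0.1 (log2) of a single step. The library labelled silica, 12 months, replicate 3 went against its label. Its Cd177, a neutrophil surface gene, was at 12.7 FPKM, against 31.8 to 46.8 in the other 4 silica libraries of that time and 8.07 to 16.3 in air. Lilrb4, Esr1, Sod2 and Arg1 were also outside the range of the other 4. Changes of the expressed genes that rest on it are given with and without it. Marker sums, genes below the filter and other genes of membrane transport are given only with it.

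Levels of the 24 genes spread from 7.63 FPKM at the median down to 0. Median FPKM over the 59 libraries was 7.63 for Slc12a7, 3.59 for Slco3a1, 3.43 for Slco2b1, 2.61 for Slc1a5, 1.48 for Slc18b1 and 1.22 for Slc2a12, which made up the expressed set. Slc12a7 exceeded Slco3a1 in 59 of 59 libraries. Slco3a1 exceeded Slco2b1 in 33 of 59, so the order of these 2 was not fixed. Slco2b1 was above Slc1a5 in 44, Slc1a5 above Slc18b1 in 56, and Slc18b1 above Slc2a12 in 45. FPKM are per length, so these levels can be set beside each other. At the lower edge of the expressed set, Slc2a12 exceeded Slc22a3, the highest gene below the filter (median 0.461), in 59 of 59 libraries.

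**Figure D1:**
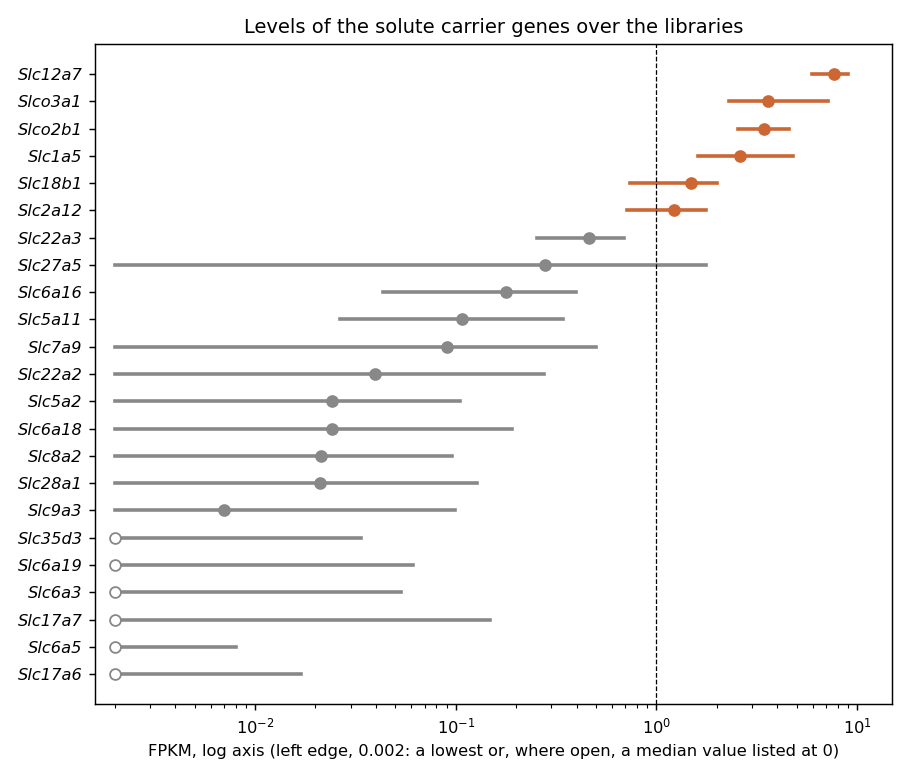
Levels of 23 of the 24 solute carrier genes: each line runs from the lowest to the highest FPKM over 59 libraries on a log axis, the point is the median, and the dashed line is 1 FPKM. The 6 expressed genes (orange) have medians from 1.22 to 7.63, and 6 of the other 17 drawn (grey) have a median of 0 (open points).

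By the substrate that the family number stands for, 1 of 7 carriers of amino acids and related transmitters was expressed, 2 of 5 carriers of organic ions, bile acids and drugs, 1 of 3 carriers of inorganic ions, 1 of 3 sugar carriers and 1 of 3 vesicular carriers. Neither of the 2 carriers of nucleosides and nucleotide sugars nor the 1 fatty acid carrier was. The 18 genes below the filter include several known from other organs. Slc6a3, the dopamine transporter, and Slc6a5, a glycine transporter of nerve terminals, had a median of 0. So did Slc17a6 and Slc17a7, which load glutamate into synaptic vesicles, Slc6a19, an amino acid carrier of gut and kidney, and Slc35d3. Slc5a2, the kidney's sodium-glucose carrier, reached at most 0.105 FPKM, and Slc9a3, the sodium-proton exchanger of gut and kidney, 0.0989. Among those nearer to the filter were Slc27a5, a liver enzyme of bile acid and fatty acid activation (median 0.280), and Slc6a16 (0.178). Slc27a5 was the only one of the 18 with a library at 1 FPKM, in 2 libraries.

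In RefSeq's order, Slc12a7, Slc6a19 and Slc6a18 follow each other, with medians of 7.63, 0 and 0.0241 FPKM. Slco2b1 overlaps the olfactory receptor gene Olr35 in GRCr8. Olr35 stayed at or below 0.330 FPKM. Slc6a16 overlaps Cd37, a leukocyte gene with a median of 4.18 FPKM. Whether the authors' counting used strand is not given in the sources used here, so a share of the reads of Slc6a16 could be those of Cd37.

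Silica lungs differed from air in 4 of the 6 expressed genes in the mean of the 6 within-time differences, against 57.6% of all genes tested. Slc1a5, a sodium-dependent exchanger that brings glutamine into cells, rose most. Slc12a7, a potassium-chloride cotransporter that moves both ions out of cells and regulates volume, also rose. Slco3a1, an organic anion transporter that carries prostaglandins, and Slc18b1, a vesicular carrier of polyamines, fell. Slc2a12, a facilitative glucose transporter, and Slco2b1, a carrier of steroid sulfates and drugs, did not pass the test, but both passed as lower once libraries were centred on their median or quantile normalized (adjusted p = 0.00202 and 0.0158 after centring, 0.0140 and 0.0179 after quantile normalization). Slc2a12 also passed as lower on the deposited scale with a pseudocount of 1 (adjusted p = 0.0488) or without the intensity trend (0.0450).

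The mean log2 changes, silica minus air, were 0.49 ± 0.05 (SE) for Slc1a5 (limma, adjusted p = 2.70e-12), 0.16 ± 0.03 for Slc12a7 (adjusted p = 1.63e-06), -0.21 ± 0.04 for Slc18b1 (adjusted p = 1.47e-05) and -0.25 ± 0.06 for Slco3a1 (adjusted p = 0.000236). Changes are on log2(FPKM + 0.5), which understates those of low genes. Slc2a12 was at -0.09 ± 0.04 (adjusted p = 0.0506) and Slco2b1 at -0.03 ± 0.03 (adjusted p = 0.414). The median over the 6 genes was -0.06, against 0.03 over all 1278 tested. Without the library labelled silica, 12 months, replicate 3, Slc1a5 was at 0.51 (adjusted p = 5.96e-14), Slc12a7 at 0.17 (2.08e-07), Slc18b1 at -0.21 (5.98e-06), Slco3a1 at -0.28 (3.86e-06), Slc2a12 at -0.09 (0.0593) and Slco2b1 at -0.04 (0.337), and 59.5% of all genes were called. Leaving out other libraries in turn kept these 4 calls, while Slc2a12 passed as lower in 19 of 59 such fits (adjusted p from 0.0251 to 0.0497).

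**Figure D2:**
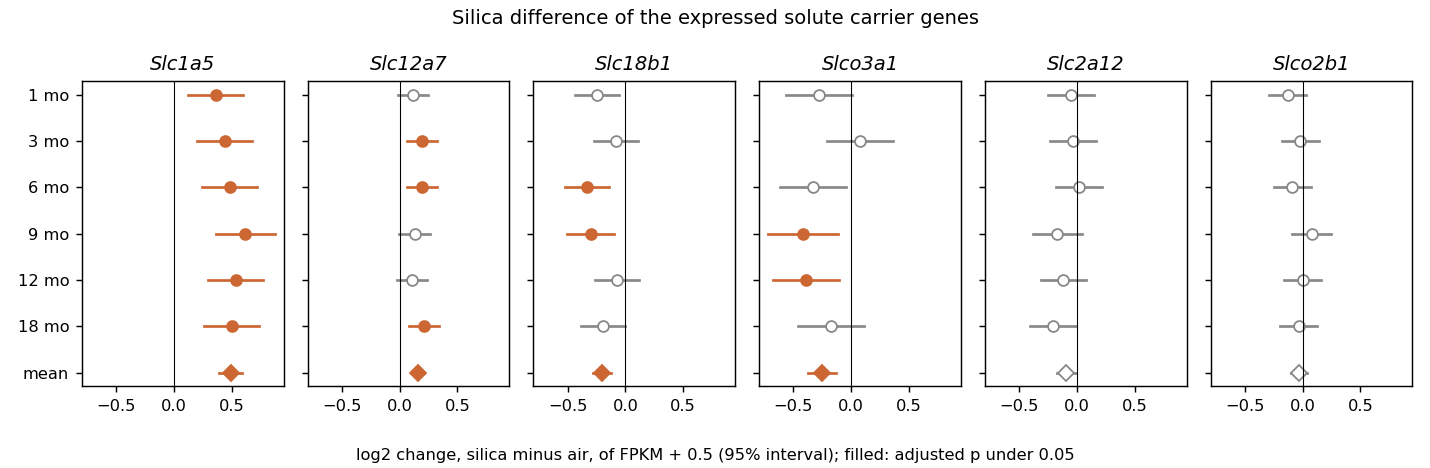
Log2 change of FPKM + 0.5, silica minus air, for the 6 expressed genes at each time and in the mean over times (diamond), with 95% intervals. Filled points have an adjusted p under 0.05: Slc1a5 at all 6 times, Slc12a7 at 3 of them, Slc18b1 and Slco3a1 at 2 of them each, and none for Slc2a12 and Slco2b1.

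At 1 month 1 of the 6 genes was called, against 8.84% of all tested, at 3 months 2 (18.2%), at 6 months 3 (27.6%), at 9 months 3 (30.8%), at 12 months 2 (23.6%) and at 18 months 2 (15.3%). Slc1a5 was among them at every time. Without silica replicate 3, the 12-month count stayed at 2, while the share of all genes called there was 35.8% (457 genes in place of 302).

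Slc1a5 was higher in silica at all 6 times. At 1 month its FPKM in the 5 air lungs were 2.07, 1.64, 1.61, 2.12 and 2.52, and in the 5 silica lungs 2.69, 2.63, 2.45, 2.28 and 3.40. At 3 months air held 2.11, 2.29, 2.24, 1.85 and 2.34, and silica 3.46, 3.07, 3.45, 3.04 and 2.61. The silica lungs overlapped air at 1 month, by 2 lungs below the highest air lung, and stood clear of it at 3 months. At 6 months air held 2.48, 1.95, 2.50, 2.39 and 1.64, and silica 2.66, 3.37, 3.74, 3.28 and 3.20. At 9 months air held 1.77, 2.40, 1.81 and 2.29, and silica 4.34, 3.57, 3.19, 3.10 and 3.04. Every silica lung was above every air lung at these 2 times also. For 5 lungs against 5, as at 3 and 6 months, chance alone keeps the groups from overlapping, in either direction, in 0.794 of 100 genes. At 9 months, with 4 air lungs, that rate is higher. The share of all tested genes that did not overlap was not counted, here or for the genes below. How unusual non-overlap was among all genes is therefore not known. Of all tested genes, 18.2% were called at 3 months, 27.6% at 6 months and 30.8% at 9 months. At 12 months air held 2.43, 2.43, 2.38, 2.07 and 2.86, and silica 4.07, 3.51, 2.53, 4.09 and 4.78. At 18 months air held 2.29, 2.56, 3.49, 2.66 and 2.42, and silica 3.79, 3.24, 4.11, 4.72 and 4.10. The groups overlapped at 12 months through silica replicate 3 (2.53) and at 18 months through air replicate 3 (3.49).

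**Figure D3:**
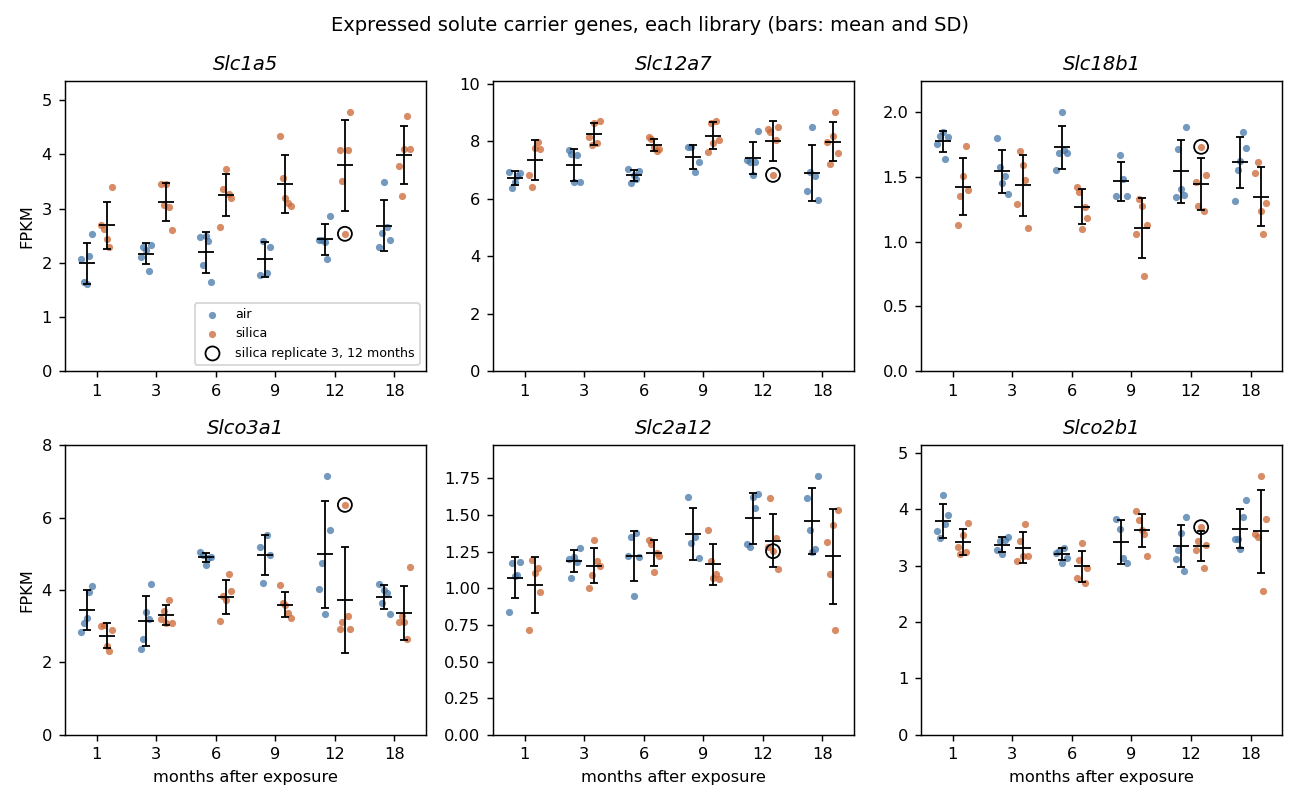
FPKM of the 6 expressed genes in every library by months after exposure, with mean and SD per group and the library labelled silica, 12 months, replicate 3 circled. Slc1a5 is higher in silica at each time. The circled library lies outside the range of the other 4 silica lungs of that time for every gene but Slc2a12.

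The log2 change of Slc1a5 was 0.36 ± 0.12 at 1 month (limma, adjusted p = 0.0441), 0.44 at 3 months (0.00645), 0.48 at 6 months (0.00149), 0.62 at 9 months (0.000134), 0.53 at 12 months (0.000721) and 0.50 at 18 months (0.00253). The difference was called at every time, and its dependence on time was not. The 1-month call was lost with a pseudocount of 1 (adjusted p = 0.0505), after median centring (0.125) or quantile normalization (0.1003), without the filter (0.0772), with the 2 groups alone (0.0946), and in 7 of 10 leave-outs, namely of air lung 1, 2, 3 or 4 and of silica lung 1, 2 or 5 (0.0501 to 0.171). The 12-month call was lost with the 2 groups alone (adjusted p = 0.103), and without silica replicate 3 the change was 0.65 (adjusted p = 1.18e-05).

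Slc12a7 was the highest of the 24 and had the smallest within-group SD of the 6 expressed genes (0.10 on the log2 scale). Its promoter is shown because the gene rose and stood apart in level, with the sequence of Slco3a1, which fell, beside it for comparison. Both run from 250 bases before to 50 after the start that RefSeq's GRCr8 table gives, on the minus strand, 5′ to 3′. Slc12a7 is at chr1:31354576-31354875 and Slco3a1 at chr1:137797787-137798086, and the Slc12a7 start lies inside the gene's span there. Capitals mark matches, on either strand, to GGGCGG (the GC box), to CCAAT and to the E-box CACGTG.
Slc12a7: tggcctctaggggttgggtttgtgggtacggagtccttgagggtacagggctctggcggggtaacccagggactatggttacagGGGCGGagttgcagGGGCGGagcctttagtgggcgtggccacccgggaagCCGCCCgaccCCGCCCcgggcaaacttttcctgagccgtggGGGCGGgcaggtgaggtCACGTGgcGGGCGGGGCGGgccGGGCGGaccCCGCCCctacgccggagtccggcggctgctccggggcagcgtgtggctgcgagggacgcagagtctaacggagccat
Slco3a1: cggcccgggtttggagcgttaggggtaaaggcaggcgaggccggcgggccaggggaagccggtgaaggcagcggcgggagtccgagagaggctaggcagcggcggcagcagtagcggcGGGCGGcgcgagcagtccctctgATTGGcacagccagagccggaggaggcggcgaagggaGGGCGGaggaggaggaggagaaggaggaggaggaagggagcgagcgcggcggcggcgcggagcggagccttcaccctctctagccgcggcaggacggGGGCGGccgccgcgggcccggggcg
The Slc12a7 window is 71.0% G and C with 28 CpG and 9 matches to GGGCGG, which partly overlap, and 1 to CACGTG. The Slco3a1 window is 75.3% G and C with 38 CpG, 3 matches to GGGCGG and 1 to CCAAT. Of 33469 promoters of this length in the table, 33.1% hold GGGCGG, 37.5% hold CCAAT and 6.42% hold CACGTG. Neither window held TATAAA (14.2% of promoters), TGACNNNGC (12.1%) or TGANTCA (7.33%). Of the expressed genes 4 have a promoter there, and Slc1a5 and Slc18b1 do not. The windows of Slc2a12 and Slco2b1, not printed, are 48.0% and 56.7% G and C and hold none of these motifs. A match is a description of the letters and no site of binding.

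Slc12a7 was called higher at 3, 6 and 18 months. At 3 months its FPKM in air were 7.71, 7.56, 6.59, 7.50 and 6.57, and in silica 8.16, 7.88, 8.65, 7.94 and 8.69. At 6 months air held 7.05, 6.56, 6.81, 6.70 and 6.96, and silica 8.14, 8.08, 7.79, 7.65 and 7.74. The groups did not overlap at these times. At 18 months air held 6.26, 6.93, 8.48, 6.79 and 5.96, and silica 7.97, 7.20, 8.19, 9.01 and 7.59, with air replicate 3 inside the silica range. Log2 changes were 0.19 ± 0.06 at 3 months (limma, adjusted p = 0.0332), 0.20 at 6 months (0.0185) and 0.21 at 18 months (0.0221). The 3 calls were lost after median centring (adjusted p = 0.224, 0.0745 and 0.0684) and quantile normalization (0.369, 0.175 and 0.0587), while the call in the mean over times was kept under both. The size of the mean change depended on the setting. Over the other pseudocounts, filters and scalings and no trend, it ran from 0.07 to 0.17 (limma, adjusted p up to 0.00615). In the main fit it was 0.16. With the 2 groups alone the 3-month (0.0512) and 18-month (0.157) calls were lost. So were those at 3 months when silica lung 1, 3 or 5, or air lung 3 or 5, was left out (0.0510 to 0.102), and at 18 months when air lung 1 or 5, or silica lung 4, was left out (0.0828 to 0.122). At 12 months silica replicate 3 was at 6.83 FPKM beside 8.31 ± 0.204 (SD, n = 4) in the others, and the change was 0.10 (adjusted p = 0.247) with it and 0.16 (0.0523) without it.

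Slc18b1 was called lower at 6 and 9 months. At 6 months its FPKM in air were 1.56, 1.69, 2.001, 1.71 and 1.69, and in silica 1.42, 1.39, 1.10, 1.26 and 1.18. At 9 months air held 1.35, 1.67, 1.48 and 1.36, and silica 1.06, 1.33, 1.27, 0.737 and 1.13. Every silica lung was below every air lung at both times, at 9 months by a narrow gap. Log2 changes were -0.33 ± 0.10 at 6 months (limma, adjusted p = 0.00693) and -0.30 ± 0.10 at 9 months (0.0187). The 9-month call was lost with the 2 groups alone (adjusted p = 0.0966) and without air replicate 2 (0.0759) or silica replicate 4 (0.114), which at 0.737 FPKM was its lowest of 59 values. That silica library also had the lowest relative depth of the silica libraries, 0.469. At 1 month the change was -0.25 (adjusted p = 0.0969), and it passed after median centring (0.0247) and quantile normalization (0.0152). At 12 months it was -0.07 (0.644) and, without silica replicate 3, -0.12 (0.359).

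Slco3a1 was called lower at 9 and 12 months. At 9 months its FPKM in air were 5.20, 4.19, 5.51 and 4.97, and in silica 4.15, 3.64, 3.59, 3.35 and 3.23. At 12 months air held 4.04, 4.74, 3.33, 7.16 and 5.66, and silica 2.92, 3.13, 6.35, 3.30 and 2.92. At 9 months the groups did not overlap, and at 12 months the other 4 silica lungs (3.07 ± 0.181, SD, n = 4) lay below all air lungs, while replicate 3 lay above 4 of 5. Log2 changes were -0.42 ± 0.15 at 9 months (limma, adjusted p = 0.0297) and -0.39 ± 0.14 at 12 months (0.0382), and -0.58 at 12 months without silica replicate 3 (0.000348). At 6 months air held 5.06, 4.96, 4.70, 4.88 and 4.90, and silica 3.14, 3.83, 3.72, 4.43 and 3.97. Air was tight there and above all silica lungs, yet the change of -0.33 was not called in the fit of all groups (adjusted p = 0.0761), whereas it passed with the 2 groups alone (0.00437), after median centring (0.0487) and after quantile normalization (0.0411). The 9-month call was lost without the filter (0.0508), and when air lung 1, 3 or 4, or silica lung 4 or 5, was left out (0.0546 to 0.0913). The 12-month call was lost without the filter (0.0654), with the 2 groups alone (0.315), and when air lung 2, 4 or 5, or silica lung 1, 2, 4 or 5, was left out (0.0561 to 0.192). At 3 months the change was 0.08 (adjusted p = 0.760).

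Slc2a12 and Slco2b1 overlapped between groups at all 6 times, and no single time was called. Slc2a12 ran from 0.713 to 1.62 FPKM in silica (median 1.19) and from 0.836 to 1.77 in air (median 1.27). Its change was -0.20 at 18 months (adjusted p = 0.157), the farthest from 0 of the 6. Slco2b1 ran from 2.56 to 4.59 in silica (median 3.38) and from 2.90 to 4.24 in air (median 3.45). Its change lay between -0.13 at 1 month (adjusted p = 0.348) and 0.08 at 9 months (0.524).

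The 18 genes below the filter were fitted only in the fit without the filter, where 0 were called in the mean over times (36.4% of the 2325 genes of that fit), at 1 (4.00%), 3 (8.30%), 12 (12.2%) and 18 months (8.47%), or for a difference that varies between times (0.817%). At 6 months (14.2%) and at 9 months (16.9%) 1 of the 18 was called. In the mean over times the smallest adjusted p was that of Slc22a2, the kidney's organic cation transporter (-0.07, adjusted p = 0.0991). Slc22a3, an organic cation transporter, stood apart at 1 month, with 0.404, 0.424, 0.403, 0.490 and 0.588 FPKM in silica and 0.300, 0.293, 0.255, 0.259 and 0.312 in air. The groups did not overlap there but did at the other 5 times, and the 1-month change of 0.29 was not called (adjusted p = 0.0660). Slc27a5 was called lower at 6 months, by -0.73 ± 0.24 (limma, adjusted p = 0.0282), with 0.0939 to 0.557 FPKM in silica and 0.623 to 1.77 in air. That call was lost when air lung 4 (-0.54, adjusted p = 0.152) or silica lung 2 (0.0861) or 5 (0.0964) was left out. In the air groups of this fit, Slc22a3 (adjusted p = 0.00269) and Slc27a5 (0.00675) varied between times, 2 of the 18 against 14.7% of all genes. From 1 to 18 months of air, 1 of the 18 was called, against 11.6%: Slc22a3 rose by 0.36 (adjusted p = 0.00762), from a mean of 0.284 ± 0.0253 FPKM (SD, n = 5) to 0.508 ± 0.105. The calls in air were kept when each air lung was left out in turn. Slc22a3 and Slc27a5 were chosen after their values were seen.

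None of the 6 expressed genes passed the test of a silica difference that varies between times (limma F test of 5 contrasts), against 1.33% of all genes, and 0 had an unadjusted p under 0.05. The adjusted p ran from 0.480 (Slco3a1) to 0.899 (Slc12a7). Without silica, 12 months, replicate 3, 6.1% of all genes varied (78 in place of 17) and the smallest member value was 0.107 (Slco3a1). That a gene was called at some times and not others was therefore not a called difference between times.

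In the air groups, which grew older with time after exposure, levels of 2 of the 6 varied between times, against 28.9% of all genes. The labels give no batch, so age cannot be told apart from anything else that differed between the times. Slco3a1 (adjusted p = 0.000962) averaged 3.44 ± 0.556 FPKM (SD, n = 5) at 1 month, 3.15 ± 0.692 at 3 months, 4.90 ± 0.131 at 6 months, 4.97 ± 0.562 (n = 4) at 9 months, 4.98 ± 1.49 at 12 months and 3.81 ± 0.326 at 18 months, so it was highest from 6 to 12 months. Slc2a12 (adjusted p = 0.0347) averaged 1.07 ± 0.139 at 1 month and 1.48 ± 0.174 at 12 months. The Slc2a12 call was lost after median centring (0.216) and quantile normalization (0.191), without the filter (0.0538), and when air lung 1, 3 or 4 of 1 month, 3, 4 or 5 of 12 months, or 1 or 5 of 18 months was left out (0.0509 to 0.1005). Between 18 months and 1 month of air, 2 of 6 genes rose, against 21.8% of all genes called: Slc1a5 by 0.35 ± 0.12 (limma, adjusted p = 0.0247) and Slc2a12 by 0.31 ± 0.10 (0.0176). Both calls were lost after median centring (0.0650 and 0.108) and quantile normalization (0.0558 and 0.0946). The Slc1a5 call was lost with the 2 groups alone (0.0746) and when air lung 2 or 3 of 1 month, or 3 of 18 months, was left out (0.0878 to 0.118), and that of Slc2a12 without air replicate 1 of 1 month (0.0778) or 5 of 18 months (0.0703).

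Marker levels of several cell types moved with the silica groups in the bulk tissue. Sums include the library labelled silica, 12 months, replicate 3. Summed FPKM of macrophage and monocyte markers (8 of 13 in the table) ran from 83.4 to 226 in silica (median 168) and from 81.8 to 130 in air (101). The lowest silica sum was at 12 months, and the lowest at any other time was 124, at 1 month. Tyrobp alone had a median of 86.7 FPKM over all libraries. Alveolar type 2 markers (3 of 10) had medians of 229 and 146, neutrophil markers (2 of 9) 40.5 and 9.43, cell cycle genes (4 of 5) 13.3 and 8.50, and airway markers (2 of 8) 70.4 and 48.4. Over all libraries the neutrophil sum was mainly Cd177 (median 16.5 FPKM, Fcar 0.687). The airway sum was mainly Cxcl17 (43.8, Cyp2f4 9.81). Single markers are not given by group here. Endothelial markers (3 of 12) were lower, with 88.0 in silica and 105 in air, as were erythrocyte (3 of 7; 1310 and 1750) and adipocyte markers (2 of 7; 6.95 and 9.18, with Plin1 at a median of 0). Other lists were close between groups: B cell markers (3 of 5) had medians of 6.80 in silica and 6.82 in air, and the T cell marker Lat (1 of 6) 3.58 and 3.50. Heart and striated muscle markers (8 of 13) had medians of 16.5 and 17.1, and no fibroblast marker was in the table. Lung identity held: Napsa, of type 2 cells, had a median of 92.6 FPKM. The part of these cell types in the changes of Slc1a5, Slc12a7, Slc18b1 and Slco3a1 was not tested.

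Of 33 other genes of membrane transport in the table, 13 were tested, and in the mean over times, with every library kept, 7 rose and 4 fell. Of all 1278 genes tested, 479 rose and 257 fell (57.6% called). Kcnn4, a calcium-activated potassium channel of immune and epithelial cells, rose by 0.61 ± 0.07 (limma, adjusted p = 3.14e-11), Kcnk6 by 0.38 (6.95e-12) and Atp10a, a lipid flippase, by 0.37 (1.25e-09). Fxyd5 and Fxyd3, regulators of the sodium pump, rose by 0.69 each (3.18e-14 and 1.37e-13), and Scnn1b, a subunit of the epithelial sodium channel, by 0.25 (3.03e-06). Fxyd1 (-0.42, adjusted p = 1.03e-07), Fxyd7 (-0.35, 0.00218), Kcne3 (-0.24, 2.80e-05) and Trpm4 (-0.10, 0.00173) fell. The median over the 13 was 0.17, against 0.03 over all genes tested. No ABC transporter, aquaporin or calcium channel passed the filter.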

How the data were processed

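RNA from a piece of lung was extracted with miRNeasy kits and DNase, and sequenced as TruSeq Stranded Total RNA libraries with Ribo-Zero Gold depletion, per the labels' protocols. The submitters' processing notes name Cufflinks 2.1.1, TopHat2 2.0.9, Bowtie2 2.2.9, Trimmomatic 0.35 and bcl2fastq 2.19, without roles. Build and annotation are not given in the sources used here. As deposited, values are the authors' FPKM, per the title of their table, with no counts or depth. The table had 2888 entries, the last incomplete (31 of 59 values) and left out. Columns were matched to samples by title.

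Groups came from the labels, which give no batch. limma 3.58.1 in R 4.3.3 was fitted to log2(FPKM + 0.5) of the 1278 entries with at least 1 FPKM in at least 4 libraries, all 12 groups in 1 fit (47 residual degrees of freedom), with an intensity trend. Benjamini-Hochberg adjustment ran over all 1278, with calls at 0.05; the script was tested on simulated data. No count model was used. The expressed members are named by rule; genes below the filter are examples chosen after their values were seen. The members and lists were chosen with earlier results of these data known. Replicates are separate rats. Alternatives were other pseudocounts, filters and scalings, no trend, the 2 groups alone and leaving out each library. Some genes are not reported here by name. Promoters came from RefSeq's GRCr8 promoter table. Its gene table served for names, chromosome, order, overlap of neighbours and the span of Slc12a7. The only coordinates printed are those of the promoter windows.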

Additional observations from a re-analysis of the deposited data

Results flagged for a closer look

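Of 72 combinations of an expressed gene and a group, 3 held a value far from the others of its group, a rule that chance alone meets in about 1 in 20 groups. Slc2a12 in air at 1 month was lowest in replicate 1, at 0.836 FPKM, with the next at 1.09. Slc12a7 in silica at 12 months was lowest in replicate 3, at 6.83 FPKM, with the next at 8.03. Slco3a1 in silica at 12 months was highest in the same replicate 3, at 6.35 FPKM, with the next at 3.30. That library went against its label in other genes as well.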

How the results depend on the processing

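No paired analysis was possible because the labels give no replicate number shared between groups. Of 1786 gene values recomputed, 1685 kept their side of the threshold, 71 lost a call and 30 gained one. The sign differed in 21, none of them called in either fit and none above 0.0765 (log2) in size. Counts of called genes (of 6, unless given) were as follows where they moved. The share of all genes called is given beside them only for the fit without the filter. The other counts can therefore not be set against all genes here. With a pseudocount of 1, the 1-month count was 0 and that in the mean over times 5, which it also was without the trend. Without the filter all 24 genes were fitted, and shares in brackets are of the 2325 genes of that fit. The count was 0 at 1 month (4.00%), 4 at 6 months (14.2%) and 1 at 12 months (12.2%). It was 3 for air varying between times (14.7%) and 3 for air at 18 against 1 month (11.6%). With a mean of at least 5 FPKM, where Slc12a7 alone is left, it was 0 at 1, 9 and 12 months, 1 at 3, 6 and 18 months, 1 in the mean over times, and 0 for air varying between times and for air at 18 against 1 month. Median centring and quantile normalization each gave 6 in the mean over times, 1 at 3 months, 1 at 18 months, 1 for air varying between times and 0 for air at 18 against 1 month, and moved the median of all genes by less than 0.1 (log2). With the 2 groups alone, counts were 0 at 1 month, 1 at 3 months, 4 at 6 months, 2 at 9 months, 0 at 12 months, 1 at 18 months and 1 for air at 18 against 1 month. The cause was not tested.

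Leaving out each library in turn gave 0 to 1 genes at 1 month, 1 to 2 at 3 months, 3 at 6 months, 1 to 3 at 9 months, 1 to 2 at 12 months, 1 to 2 at 18 months, 4 to 5 in the mean over times, 0 for the difference varying between times, 1 to 2 for air varying between times and 1 to 2 for air at 18 against 1 month. Of all 1278 genes, the same fits called 44 to 136 at 1 month and 163 to 258 at 3 months. They called 292 to 349 at 6 months, 319 to 404 at 9 months and 195 to 457 at 12 months. At 18 months the range was 112 to 214, and in the mean over times 726 to 761. For the difference varying between times it was 10 to 78, and for air varying between times 302 to 396. For air at 18 against 1 month it was 202 to 281. Leaving out each library in the fit without the filter was added after seeing the data. Depth is known only as a relative estimate, so the counting error of values below 1 FPKM is not known.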

Other observations

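Slc27a5, which lies below the filter, reached 1 FPKM in 2 libraries, both of air. In air at 6 months, replicate 4, it was at 1.77 FPKM, with the other 4 from 0.623 to 0.673. In air at 18 months, replicate 3, it was at 1.61 FPKM, with the other 4 from 0.0551 to 0.204. The relative depth of these libraries was 1.11 and 1.04, inside the range of the others.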
